A study of Mus musculus with 10 samples.

Results

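Meg3 and 9 other imprinted genes, Rian, Mirg, Dlk1, H19, Igf2, Igf2r, Grb10, Cdkn1c and Plagl1, were followed in the livers of mice without the glucagon receptor. The 10 genes were taken by name, because Meg3 was lower in the receptor-null livers, and every array probe of each gene was kept, which gave 21 of 41174 probes and 10 of 27670 gene names. Meg3 is listed on the array under its older name Gtl2 and has 5 of the 21 probes. The KO group held 5 livers of Gcgr ko/ko mice, from 2 males and 3 females, and the WT group held 5 livers of wt/wt mice, from 3 males and 2 females. Each liver came from its own mouse. The labels describe the mice by genotype, sex and tissue, so age, strain, feeding state and the form of the deleted allele were not used here.

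Total RNA of each liver was labelled with Cy5 and hybridised together with one common reference RNA, a pooled mouse RNA labelled with Cy3, on a 2-colour Agilent array. All values below are log2 ratios of liver over that reference for 1 probe, and differences are KO minus WT on the same log2 scale. The level of one probe cannot be set against that of another. The median background-subtracted Cy5 signal was 56.7 to 130 units per array, and the number of arrays limits the precision. It was 108 to 130 units on slides 1 and 2 and 56.7 to 76.1 units on slides 3 and 4. WT 3, WT 4, WT 5 and KO 5 were on slides 3 and 4. Slide 2 held only KO livers and slide 4 only a WT liver. Gcgr itself had log2 ratios of 0.28 to 0.36 in the 5 KO livers and 7.74 to 8.14 in the 5 WT livers, so every liver matched its label. Of 10 hepatocyte genes listed as markers, 9 were on the array and all 9 were well above background. Liver is a mixed tissue, and fewer cells of a type and less RNA per cell cannot be told apart in these data.

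An imprinted gene is read mainly from the copy inherited from one parent. For many such genes the difference between the copies rests on DNA methylation set in the germ line. The Dlk1-Meg3 cluster of mouse chromosome 12 is a model of such control: the noncoding RNAs Meg3, Rian and Mirg are read from the maternal copy, and Dlk1 from the paternal copy. H19 and Igf2 form the classic reciprocal pair of chromosome 7. Many imprinted genes control fetal growth, and several are abundant in fetal liver and decline after birth.

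In the RefSeq annotation of GRCm38.p6, Meg3 lies on chromosome 12 at positions 109540996 to 109571729 and is annotated as a long noncoding RNA. Dlk1 lies before it at 109452485 to 109463336, and Rian (109603945 to 109661716) and Mirg (109734981 to 109749458) follow. Annotated microRNA hairpins lie inside Meg3 (1), Rian (3) and Mirg (10), and the arrays measured the host RNAs and not the microRNAs. H19, Igf2 and Cdkn1c lie on chromosome 7, Igf2r on chromosome 17, Grb10 on chromosome 11 and Plagl1 on chromosome 10.

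The glucagon receptor signals through cyclic AMP, and a cyclic AMP response element (CRE) has been described in the promoter of human MEG3. The first RefSeq promoter window of mouse Meg3 is therefore shown, because Meg3 is the gene on which the comparison turns. It covers 250 bases before to 50 bases after the annotated start, at chr12:109540746-109541045 on the plus strand of GRCm38.p6, with the full CRE in capitals:

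Meg3 promoter: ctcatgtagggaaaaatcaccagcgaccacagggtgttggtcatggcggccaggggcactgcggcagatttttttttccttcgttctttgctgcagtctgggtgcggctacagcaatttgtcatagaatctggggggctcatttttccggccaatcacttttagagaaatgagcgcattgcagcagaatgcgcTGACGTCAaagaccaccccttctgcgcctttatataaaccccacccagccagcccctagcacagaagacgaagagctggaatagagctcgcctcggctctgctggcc

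Both strands were searched for the full CRE (TGACGTCA), for its short form (TGACG) and for TATAAA. A short form inside a full site is counted as well. The Meg3 window held a full CRE whose first base is at -57 from the start, and a TATAAA on the strand of the gene at -25, with a match on the opposite strand at -29. Of 32851 RefSeq promoter windows of the same length, 588 (1.79%) held the full CRE, 6837 (20.8%) the short form and 4473 (13.6%) TATAAA. RefSeq gave 13 windows for 8 of the 10 genes, and H19 and Cdkn1c had no window in the table. The full CRE was in 1 of the 13 windows, and a short form was in 6 windows of 5 genes. The stretches around the Meg3 match and around a match in 3 other genes are set out to compare them, with the matched letters in capitals and each written 5′ to 3′ on the strand of its gene:

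Meg3 full CRE: cagaatgcgcTGACGTCAaagaccaccc

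Dlk1 short form: ggggggggggTGACGcatgatgtcg

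Igf2r short form: tcaggtcacgTGACGctccggggac

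Grb10 short form: ggacctgagcTGACGtccagcccac

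These are matches of letters only. No binding was measured in these samples.

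Meg3 was lower in all 5 KO livers than in any WT liver on 2 of its 5 probes. Meg3 is a maternally expressed noncoding RNA that restrains growth of many cell types in culture. On probe A_51_P455997, near the far end of the probed stretch (mm7, the build of the file headers, chromosome 12, 107092697 to 107092756), the log2 ratio was -0.71, -0.59, -0.73, -0.64 and -0.76 in KO livers 1 to 5. In WT livers 1 to 5 it was 1.66, 1.06, 2.55, 3.13 and 0.51. The KO livers lay within 0.17 of each other and the WT livers spread over 2.62, with the lowest WT liver still above the highest KO liver. The mean was -0.69 ± 0.07 in KO and 1.78 ± 1.07 in WT livers (SD, n = 5 each), and the fitted difference, with sex as a term, was -2.65 (SE 0.31), a 6.28-fold lower signal. The genes were chosen on this difference, so no test of it is given.

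Probe A_52_P391505, at the near end (mm7, chromosome 12, 107070994 to 107079479), gave the same order. Its log2 ratio was -0.33, -0.24, -0.20, -0.32 and -0.34 in KO livers 1 to 5, against 1.15, 0.91, 2.22, 2.89 and 0.48 in WT livers 1 to 5. The ranks of the 5 WT livers on both probes were alike, with WT 4 highest, WT 3 next and WT 5 lowest. The means were -0.29 ± 0.06 in KO and 1.53 ± 0.99 in WT livers (SD, n = 5 each), with a fitted difference of -1.99 (SE 0.28). With the scanner's own ratio, which adds no offset to dim signals, this difference was -2.96, and that of the other probe -3.22.

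The signal that remained in KO livers was low but measurable. Net Cy5 signal on A_51_P455997 was 64.5 to 125 units in KO livers and 170 to 1901 units in WT livers, and the probe was well above background on all 10 arrays. An offset of 50 units was added to every channel, which draws ratios at such low signals towards 0.

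The other 3 Meg3 probes were dim. A_52_P99341 was well above background in 1 of 5 KO and 3 of 5 WT livers, with a difference of -0.09 (SE 0.07), and -0.26 (SE 0.17) with the scanner's ratio. A_51_P109649 was well above background in 3 of 5 KO and 2 of 5 WT livers, with a difference of -0.21 (SE 0.09), and -0.50 (SE 0.13) with the scanner's ratio. A_52_P196568 was not well above background on any array and was not fitted. All 3 lie between the 2 bright probes within a stretch of 21.8 kb, and the groups overlapped on each of them. Meg3 is made in several splice forms. The array annotation names the same transcript for the bright A_52_P391505 and the dim A_52_P99341 and A_52_P196568. Which splice forms each probe reads was not worked out.

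**Figure D1:**
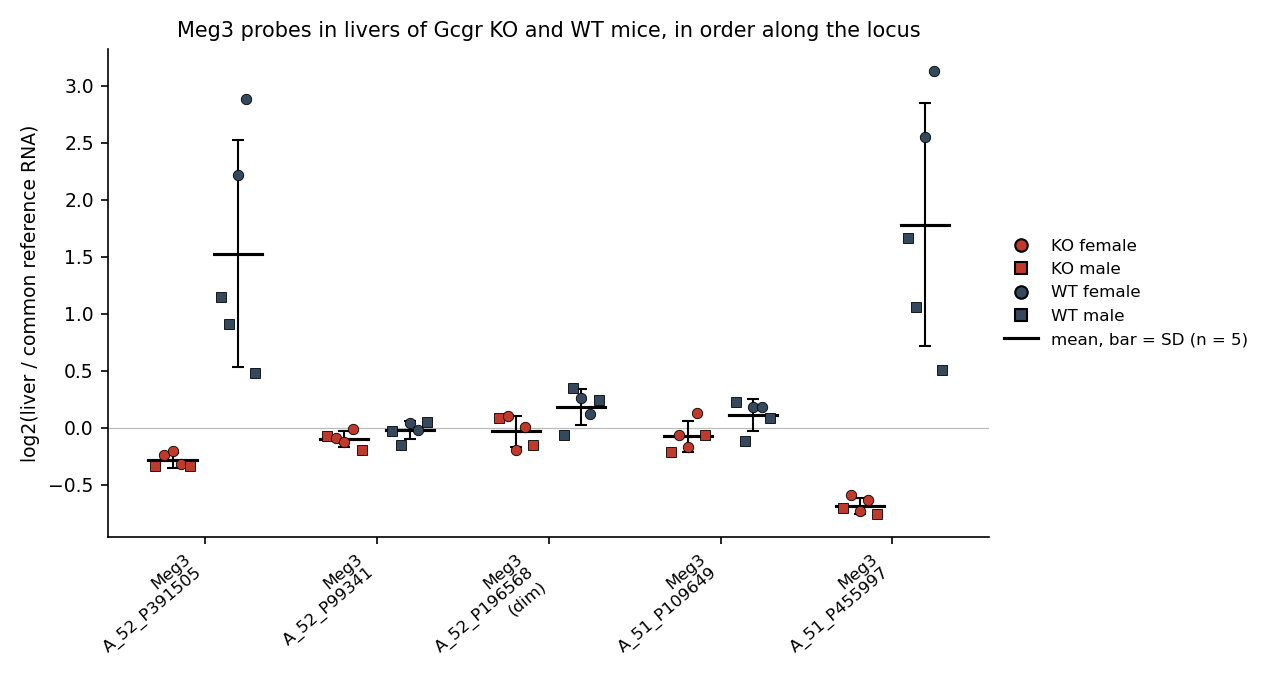
Log2 ratio of liver over the common reference RNA (vertical axis) for the 5 Meg3 probes in their order along chromosome 12 (horizontal axis), KO livers left of WT livers, with circles for females, squares for males, and the mean with its SD over 5 livers. On the 2 outer probes the KO livers lie close together below 0 and the WT livers spread from 0.48 to 2.89 and from 0.51 to 3.13, while the 3 inner probes stay near 0 in both groups.

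Among WT livers the 2 females had the highest Meg3. On A_51_P455997 the WT females had 2.55 and 3.13, and the WT males 1.66, 1.06 and 0.51. KO females had -0.59, -0.73 and -0.64 and KO males -0.71 and -0.76, which overlapped. The difference between KO and WT was -3.49 (SE 0.27) in females and -1.81 (SE 0.27) in males, which is 11.2-fold and 3.51-fold. The genotype by sex interaction was -1.68 (SE 0.38) with an adjusted p of 0.162 by limma over all 26933 probes, and on A_52_P391505 it was -1.63 (SE 0.29) with an adjusted p of 0.109. Neither passed the threshold of 0.05, at which 0.026% of all probes were called for the interaction. Without WT 3 the interaction on A_52_P391505 was -1.96, a value that rests on WT 4 as the only WT female left.

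The sex difference averaged over genotypes also missed the threshold. Female minus male was 0.92 (SE 0.31, limma adjusted p = 0.0823) on A_51_P455997 and 0.89 (SE 0.28, limma adjusted p = 0.0628) on A_52_P391505. On A_52_P391505 it passed without KO 1 (1.08, limma adjusted p = 0.0488), without KO 5 (1.08, limma adjusted p = 0.0391), with slide as a random block (0.83, limma adjusted p = 0.0484) and with the scanner's ratio (1.15, limma adjusted p = 0.0332). On A_51_P455997 it passed with the scanner's ratio (1.04, limma adjusted p = 0.0499). Both WT females were on slide 3 and no WT male was, so sex and slide cannot be told apart among WT livers.

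Meg3 was lower in KO livers within each slide that held both genotypes. On A_51_P455997 the difference was -2.01 among the 4 livers of slide 1 and -2.07 among its 3 males. On slide 3, where the KO liver was male and both WT livers female, it was -3.60. On A_52_P391505 the values were -1.32 on slide 1 and -2.89 on slide 3.

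Some markers of non-hepatocyte cells moved with genotype or sex. None of 16 stellate cell and fibroblast genes passed for KO minus WT, and all 16 were well above background on enough arrays to be tested. The mean centred level of these 16 genes was -0.14 to 0.10 in KO and -0.36 to 0.29 in WT livers, so the groups overlapped. Of the 16, 7 passed for sex, against 11.3% of all genes: Ecm1, Lum, Pdgfrb, Rgs5, Pdgfra and Hgf, which encodes hepatocyte growth factor, were higher in females, by 0.42 (Pdgfrb) to 0.73 (Lum), and Acta2, the smooth muscle actin, was lower by 0.23. Other probes of Ecm1, Hgf, Pdgfra, Rgs5 and Acta2 did not pass. The other Rgs5 probe was at 0.48 (limma adjusted p = 0.0651), close to the called one at 0.46. Those of Ecm1, Hgf, Pdgfra and Acta2 lay between -0.07 and 0.15. The mean centred level of 11 endothelial genes was 0.07 to 0.29 in KO and -0.45 to 0.005 in WT livers. That separation rested on Lyve1: over the other 10 genes the level was -0.0031 to 0.21 in KO and -0.38 to 0.07 in WT livers, and the groups overlapped. Of the 11, 2 passed for KO minus WT, against 5.91% of all 18921 genes read by their brightest probe. Lyve1, a sinusoidal endothelial receptor, rose by 1.47 (SE 0.25, limma adjusted p = 0.00617; 0.92 on its other probe) and Pecam1, an endothelial adhesion molecule, by 0.26 (limma adjusted p = 0.0494), a call lost under 18 of 22 alternatives. Kdr, a receptor of endothelial growth factor, was higher in females by 0.43 (limma adjusted p = 0.0164). The mean centred level of 7 bile duct genes was 0.03 to 0.20 in KO and -0.32 to 0.02 in WT livers, without overlap, and the groups overlapped when Spp1, Krt7 or Epcam was left out. By limma 0 of the 7 passed alone. The part of these markers in the Meg3 values was not tested.

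The other noncoding RNAs of the cluster gave no usable signal. Rian, which hosts small nucleolar RNAs, had 2 probes, and Mirg, a host of many microRNAs, had 1, and none was well above background in Cy5 on any array. Their net Cy5 signals were between -6.06 and 18.6 units in KO and between 0.17 and 20.1 units in WT livers for Rian, and between -5.65 and 7.63 units in KO and between 3.58 and 35.2 units in WT livers for Mirg. The Mirg log2 ratio averaged -0.41 ± 0.12 in KO and -0.10 ± 0.28 in WT livers (SD, n = 5 each), and the groups overlapped. On the Rian probes A_52_P102630 and A_52_P244 the means were 0.02 and 0.05 in KO and 0.03 and 0.15 in WT livers, again with overlap. These differences were not tested. A fall like that of Meg3 could not have been seen at such low Cy5 signals.

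Dlk1, the paternally expressed transmembrane protein of the cluster that holds back differentiation of precursor cells, had a low ratio to the reference in both groups. On A_51_P135618 the log2 ratio was -4.47, -4.39, -4.38, -4.50 and -4.46 in KO livers 1 to 5 and -4.39, -4.36, -4.47, -4.37 and -4.29 in WT livers 1 to 5. The groups overlapped and the difference was -0.06 (SE 0.06, limma adjusted p = 0.639). On A_52_P177324 it was -0.04 (SE 0.07, limma adjusted p = 0.802).

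Of the 12 probes of the 7 other genes that could be tested, 0 were called for KO minus WT by limma, against 5.59% of all 26933 probes (2.64% higher and 2.95% lower in KO), and 1 had an unadjusted p under 0.05. On 0 of the 12 did the groups not overlap, against 5.76% of all probes. Their median difference was -0.04, beside a median of -0.0034 over all probes. In all, 16 of the 21 probes, of 8 of the 10 genes, passed the filter of a signal well above background on at least 4 arrays.

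**Figure D2:**
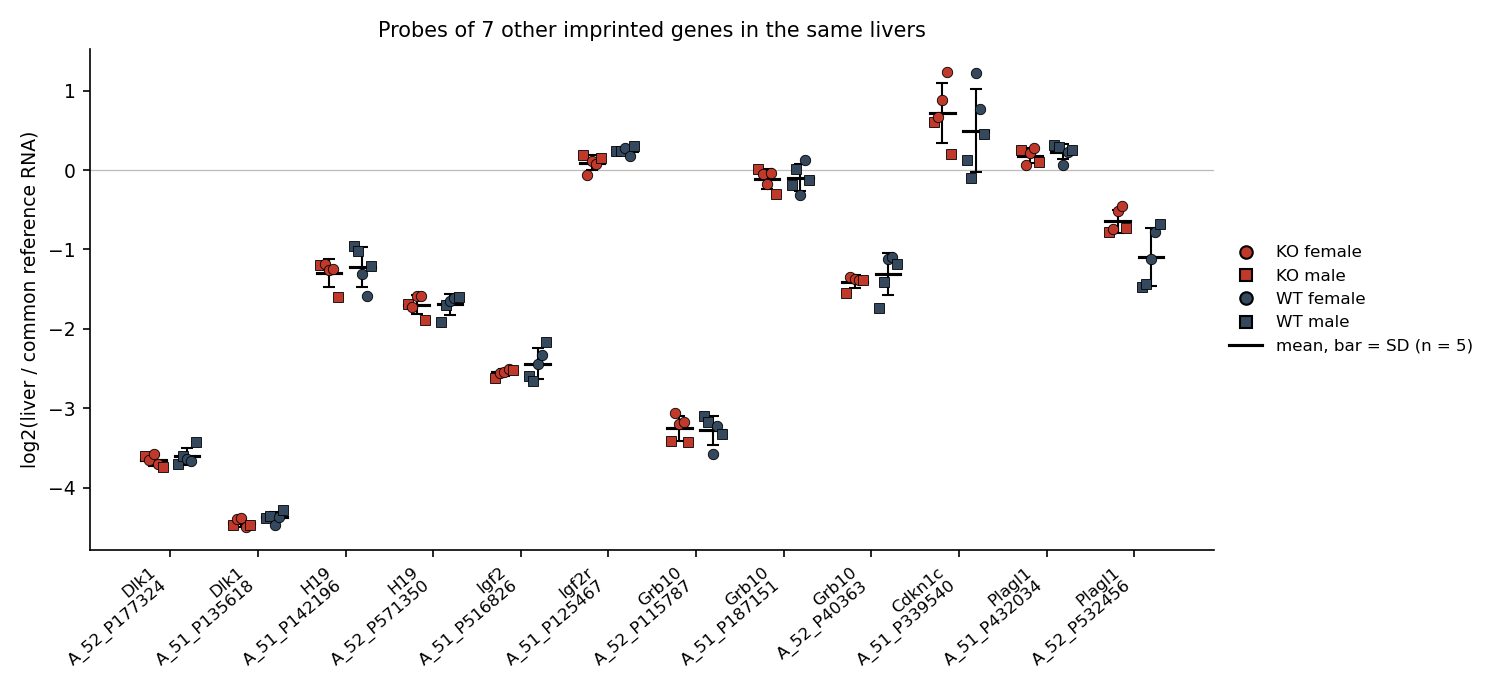
Log2 ratio of liver over the common reference RNA (vertical axis) for the 12 tested probes of Dlk1, H19, Igf2, Igf2r, Grb10, Cdkn1c and Plagl1, KO livers left of WT livers, with circles for females, squares for males, and the mean with its SD over 5 livers. KO and WT livers overlap on every probe, and the heights of different probes are not comparable.

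H19, the maternally expressed noncoding RNA next to Igf2, had 2 probes. On A_51_P142196 the log2 ratio was -1.20, -1.18, -1.26, -1.25 and -1.60 in KO livers 1 to 5, against -0.96, -1.02, -1.31, -1.59 and -1.20 in WT livers 1 to 5. The difference was -0.06 (SE 0.12, limma adjusted p = 0.835). On A_52_P571350 it was -0.03 (SE 0.08, limma adjusted p = 0.89).

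Igf2, the fetal insulin-like growth factor read from the paternal copy, was dim in these livers. Its probe A_51_P516826, spotted 10 times per array, averaged -2.55 ± 0.04 in KO and -2.44 ± 0.20 in WT livers (SD, n = 5 each), with a difference of -0.12 (SE 0.09, limma adjusted p = 0.529). Net Cy5 signal there was 79.8 to 164 units in KO and 79.1 to 152 units in WT livers. The other Igf2 probe, A_51_P516833, was not well above background in any liver.

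Igf2r, the maternally expressed receptor that clears Igf2 protein, was clearly above background, with net Cy5 signals of 1608 to 2561 units in KO and 1312 to 2894 units in WT livers. Its log2 ratio was 0.20, -0.06, 0.11, 0.07 and 0.15 in KO livers 1 to 5 and 0.23, 0.24, 0.28, 0.18 and 0.30 in WT livers 1 to 5. KO 1 lay among the WT livers and the other KO livers below them. The difference was -0.14 (SE 0.07) with a limma adjusted p of 0.273.

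Grb10, an adaptor that damps insulin and IGF receptor signalling, had 3 tested probes with differences of 0.02, -0.02 and -0.14, and limma adjusted p-values of 0.953, 0.935 and 0.493. The groups overlapped on each. On A_52_P40363 the females were higher by 0.21, which did not pass (limma adjusted p = 0.235), and with the scanner's ratio the same difference was 0.85 and passed (limma adjusted p = 0.0204).

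Cdkn1c, the maternally expressed cell cycle inhibitor p57, differed by sex and not detectably by genotype. Its log2 ratio in females was 0.67, 0.88 and 1.23 in KO and 1.22 and 0.77 in WT livers. In males it was 0.61 and 0.20 in KO and 0.13, -0.11 and 0.46 in WT livers. Every female was above every male. Female minus male was 0.68 (SE 0.15, limma adjusted p = 0.0152), and Cdkn1c was the 1 called of 16 tested probes of the 10 genes, against 10.5% of all probes (4.63% higher in females). KO minus WT was 0.09 (SE 0.15, limma adjusted p = 0.814), with values within slides of opposite sign, 0.62 on slide 1 and -0.80 on slide 3. Among the males of slide 1 alone it was 0.59. On slide 3 the KO liver was male and both WT livers were female. Without WT 3 the sex difference was 0.56 with a limma adjusted p of 0.0558, and with slide as a fixed block it was 0.63 with a limma adjusted p of 0.0861.

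Plagl1, a paternally expressed zinc finger transcription factor, had 2 probes that disagreed. On A_52_P532456 the log2 ratio was -0.78, -0.75, -0.52, -0.46 and -0.73 in KO livers 1 to 5 and -1.48, -1.44, -1.12, -0.78 and -0.67 in WT livers 1 to 5. WT 5 lay among the KO livers, WT 4 just below them and the other WT livers lower. The difference was 0.41 (SE 0.15, limma adjusted p = 0.138), and it passed without WT 5 (0.53, limma adjusted p = 0.0165), with slide as a fixed block (0.53, limma adjusted p = 0.0206) and with median centring (0.50, limma adjusted p = 0.05, just under the threshold). On A_51_P432034 it was -0.04 (SE 0.07, limma adjusted p = 0.829).

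Around Meg3, within 1000 kb on each side of its first probe in mm7 coordinates, the array held 32 probes, of which 22 could be tested and 18 of these were not of Meg3. Of the 18, 1 was called for KO minus WT, against 5.59% of all probes: the second probe of Wdr25, a WD repeat gene 522 kb before Meg3, which fell by 0.35 (SE 0.08, limma adjusted p = 0.0237, lost under 8 of 21 alternatives). The other Wdr25 probe differed by 0.04 (limma adjusted p = 0.838). The groups did not overlap on 3 of the 18 probes, against 5.76% of all probes: the called Wdr25 probe, 1 of 3 probes of Yy1, a transcription factor gene (0.25, limma adjusted p = 0.0891), and 1 of 2 probes of Wars, the tryptophanyl-tRNA synthetase gene (-0.30, limma adjusted p = 0.0763). At the far end, Dio3, the imprinted deiodinase gene that inactivates thyroid hormone, was too dim to test, and its antisense neighbour Dio3os differed by 0.00034 (SE 0.11). Of the listed neighbours of Meg3, a wider set, 16 could be tested apart from Meg3, 15 of them near it and Wdr20rt elsewhere on chromosome 12, and Dync1h1, the cytoplasmic dynein heavy chain, was the 1 called, at 0.32 (SE 0.08, limma adjusted p = 0.046), against 5.91% of all genes. That call was lost under 18 of 22 alternatives, and the other Dync1h1 probe was at -0.13 (limma adjusted p = 0.384).

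**Figure D3:**
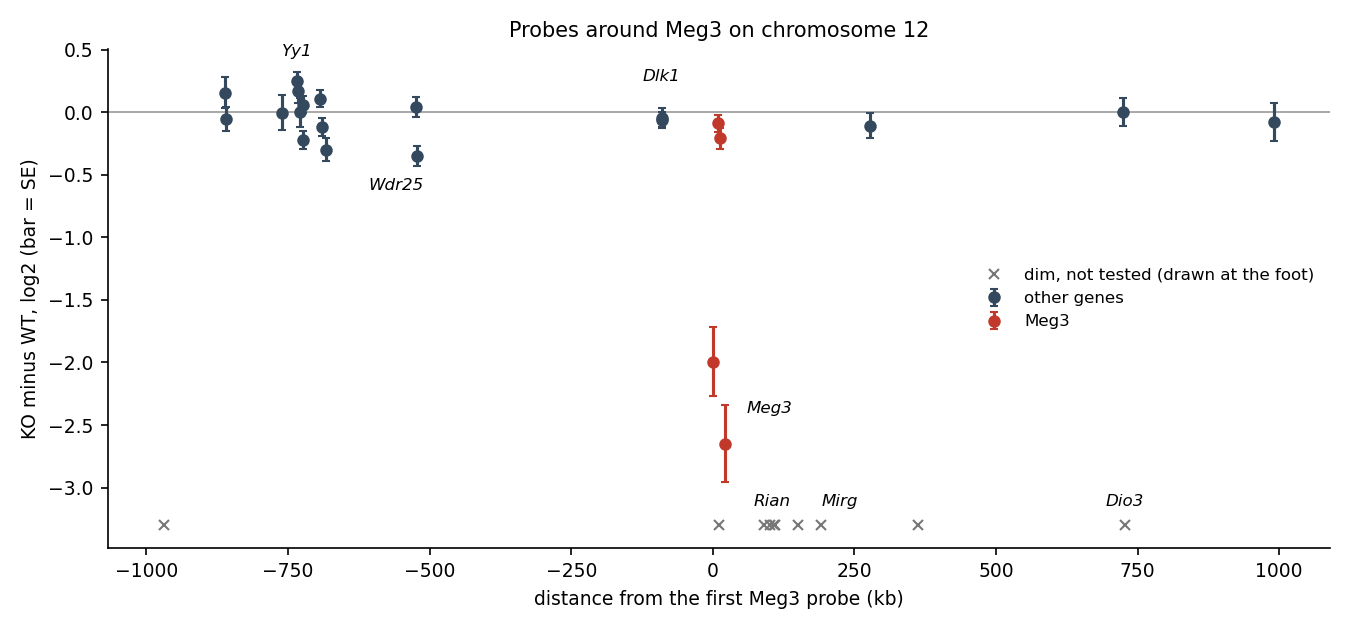
KO minus WT on the log2 scale (vertical axis, bars are the SE) against the distance in kb from the first Meg3 probe on chromosome 12 (horizontal axis), with Meg3 probes in red, other tested probes in dark blue, and crosses at the foot for probes too dim to test. Only 2 Meg3 probes lie below -0.5 among the 22 tested.

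The other imprinted genes moved in both directions. Of 21 tested genes listed as maternally expressed, 2 rose and 1 fell in KO livers. Of 21 listed as paternally expressed, 2 rose and 0 fell. Which copy was read in these livers was not measured. By the same measure, the brightest probe of each gene, 5.91% of 18921 genes were called, 2.88% higher and 3.03% lower in KO livers. That split moved with the centring: of all called probes 47.2% were higher in KO livers, and 69.8% with median centring. The median difference was 0.10 over the maternal list and 0.03 over the paternal list, against -0.0028 over all genes.

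Sgce, which encodes epsilon-sarcoglycan and is read from the paternal copy, changed most. Its log2 ratio was 0.14, 0.47, 0.34, 0.38 and 0.33 in KO livers 1 to 5 and -0.65, -0.93, -0.38, -0.53 and -0.41 in WT livers 1 to 5. The groups did not overlap. The difference was 0.88 (SE 0.10, limma adjusted p = 0.000445), and it passed under all 22 alternatives. Its other probe rose by 0.88 as well (limma adjusted p = 0.00353). Slc22a18, a membrane transporter gene of the Cdkn1c cluster, had 5.51 ± 0.09 in KO and 5.89 ± 0.06 in WT livers (SD, n = 5 each) and fell by 0.38 (SE 0.07, limma adjusted p = 0.00917), a call lost under 3 of 22 alternatives; its other probe fell by 0.52 (limma adjusted p = 0.0166).

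The remaining calls were near the threshold. Gnas, which encodes the G protein subunit that links the glucagon receptor to cyclic AMP synthesis and is imprinted in some tissues, rose by 0.28 (SE 0.07, limma adjusted p = 0.0406) on its brightest probe. Of its 5 probes 1 more passed (0.32, limma adjusted p = 0.0364), and the other 3 were at 0.08, 0.02 and 0.01 (limma adjusted p = 0.511 to 0.962). Asb4, an ankyrin repeat gene read from the maternal copy, was 0.42 higher on its brightest probe (SE 0.11, limma adjusted p = 0.0429) and at -0.17 on its other probe (limma adjusted p = 0.247), so its probes disagreed in sign. Peg12, a paternally expressed gene of the Frat family, rose by 0.42 (SE 0.11, limma adjusted p = 0.0421). These calls were lost under 15, 15 and 14 of the 22 alternatives for these probes of Gnas, Asb4 and Peg12 in that order.

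**Figure D4:**
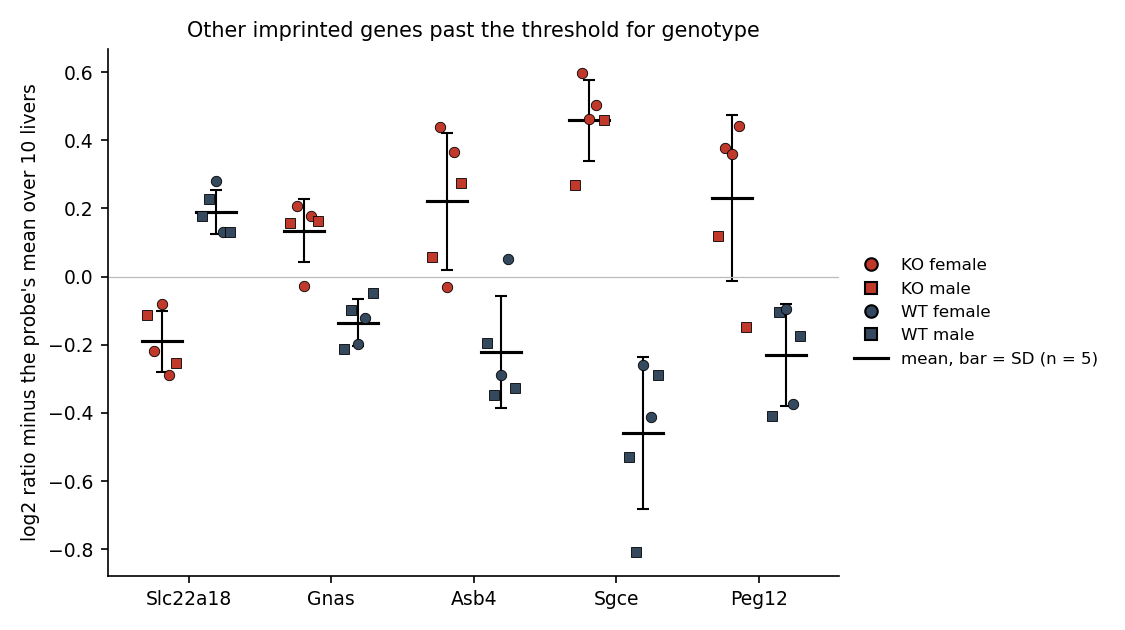
Log2 ratio minus the probe's mean over the 10 livers (vertical axis) for the 5 other imprinted genes past the threshold (horizontal axis), KO livers left of WT livers, with circles for females, squares for males, and the mean with its SD over 5 livers. KO and WT livers are apart for Slc22a18, Gnas and Sgce and overlap for Asb4 and Peg12.

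For sex, 4 of the 21 maternal and 2 of the 21 paternal genes passed, against 11.3% of all genes. Ppp1r9a, which encodes the actin-binding protein neurabin, was lower in females by 0.97 (limma adjusted p = 0.000222), with means of 2.03 in females and 3.05 in males. Sfmbt2, a polycomb group gene (-0.92), Phlda2, a restrainer of placental growth (-0.83), H13, a signal peptide peptidase gene (-0.45), and Ndn, which encodes necdin (-0.26), were also lower in females, with limma adjusted p-values of 0.0026, 0.00265, 0.00453 and 0.0491 in that order. The call of Ndn was lost under 16 of 21 alternatives. These are values of the brightest probe: the other Sfmbt2 probe was at 0.35 (limma adjusted p = 0.142), the other 2 H13 probes at -0.02 and 0.03, and the other Ppp1r9a probe at -0.22 (limma adjusted p = 0.187), none of them called. Gatm, the first enzyme of creatine synthesis, was higher in females by 0.44 (limma adjusted p = 0.0214).

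Genes of imprint maintenance and DNA methylation, such as DNA methyltransferases and Tet genes, had no call for KO minus WT by limma. Among the 15 tested, the differences lay between -0.12 and 0.12. Of all genes 5.91% were called (2.88% higher and 3.03% lower in KO livers), which is also the share for the counts that follow. Of 13 tested fetal liver genes, 1 rose and 1 fell. Afp, the fetal albumin, averaged -2.34 ± 0.27 in KO and -1.17 ± 0.16 in WT livers (SD, n = 5 each) and fell by 1.13 on the log2 scale (SE 0.12, limma adjusted p = 0.000394), with no overlap. Igf2bp2, an RNA-binding protein of Igf2 mRNA, rose by 0.78 (SE 0.12, limma adjusted p = 0.0035). Of 16 IGF axis genes, 0 rose and 2 fell: Igf1, the liver-made growth factor, by 0.35 (SE 0.07, limma adjusted p = 0.0166) on its brightest probe, and Igfbp4, an IGF-binding protein, by 0.58 (SE 0.09, limma adjusted p = 0.00443). The other 2 Igf1 probes were at -0.19 (limma adjusted p = 0.202) and 0.06 (limma adjusted p = 0.974), and the call on the brightest was lost without WT 3 (limma adjusted p = 0.0622), with outlier spots removed after normexp (0.454), with median centring (0.492) and with the replicate block (0.134). Within this group Igfbp2 and Igfbp7 were higher in females, by 0.53 and 0.34 (limma adjusted p = 0.00291 and 0.0364).

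The remaining marker lists are set against the same 5.91% of all genes. Kupffer cell genes (10 tested) and bile duct genes (7 tested) had 0 calls by limma. Their median differences were 0.23 and 0.22 in that order, against -0.0028 over all genes. Single Kupffer cell genes lay between -0.01 and 0.47. The mean centred level of the Kupffer cell genes was -0.27 to 0.50 in KO and -0.65 to 0.46 in WT livers, so the groups overlapped. Of 10 lymphocyte genes 1 rose, Cd79b of the B cell receptor, by 0.48 (limma adjusted p = 0.0324), and of 4 erythroid genes 1 fell, the transcription factor Klf1, by 0.63 (limma adjusted p = 0.00486). Of 9 hepatocyte genes 2 fell, Ass1 of the urea cycle by 1.20 (limma adjusted p = 0.000592) and Tat, tyrosine aminotransferase, by 0.63 (limma adjusted p = 0.00567).

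The pattern of Meg3 over the 10 livers was set against every other probe that passed the filter. The measure was the root mean square difference of centred log2 ratios, which is 0 for identical patterns. It uses the same livers that chose Meg3, so it is a description. For A_51_P455997, whose own root mean square was 1.41, the nearest probe was the other bright Meg3 probe, at 0.35. The next 5 genes were 8030488J09Rik (0.403), Lhpp, a histidine phosphatase gene (0.531), Cyp2g1, a cytochrome P450 (0.563), Got1, the cytosolic aspartate aminotransferase (0.608), and Zap70, a kinase of T cell receptor signalling (0.62).

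These 5 genes were lower in KO livers by 2.05, 2.08, 1.97, 2.60 and 3.31 on the log2 scale, in that order. Cyp2g1 came nearest to Meg3 in its spread among WT livers, with log2 ratios of 0.69, 1.03, 1.56, 1.12 and 1.12 in KO livers 1 to 5 against 2.19, 1.61, 4.03, 3.999 and 2.37 in the WT livers in the same numbering. For Cyp2g1, as for Meg3, WT 3 and WT 4 were the highest livers. None of the 12 tested probes of the 7 other imprinted genes came nearer to Meg3 than 1.35. The dim Meg3 probes A_51_P109649 and A_52_P99341 lay as far off, at 1.30 and 1.37. The measure is set largely by the fall for which Meg3 was chosen, so a probe without such a fall lies near 1.41. These distances therefore cannot show whether the other imprinted genes follow Meg3. The probes of Rian and Mirg did not pass the filter and were not compared.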

How the data were processed

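RNA of 10 livers (5 KO, 5 WT) was measured on Agilent arrays of design 014868, on 4 slides. Per the file headers, signals were extracted with Agilent Feature Extraction 10.7.3.1, and each deposited spot signal and its local background is an intensity on a linear scale. Per the file headers, the scanner's deposited ratio is log10 of Cy5 over Cy3. The authors' value table holds log2 ratios, with centring and normalization not given in the sources used here (column medians 0.00776 to 0.023); it correlated with the ratios used here at 0.9994 to 0.9996. Dyes were not swapped.

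Spots with outlier flags (169 to 291 per array) were removed. Signals were then corrected with normexp (offset 50), normalized by loess within arrays, and averaged per probe. Kept were 26933 probes whose Cy5 was well above background on 4 or more arrays. limma 3.58.1 in R 4.3.3 fitted genotype and sex, and their interaction in a separate model, with Benjamini-Hochberg adjustment over all probes and a threshold of 0.05. Gene lists were read by each gene's brightest probe. Probes were named through RefSeq accessions (22951), symbols (6659) or synonyms (3109), and 8455 kept the name in the files. On simulated data with 26933 probes the genotype fit recovered 63% of changes of 0.5 and 96% of changes of 1 on the log2 scale. It made 6 false calls. The simulated noise was independent between livers, with no sex effect and no likeness between livers of a slide. These values therefore check the fit and do not give the error rate on these arrays.

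The 10 genes and the gene lists were chosen with earlier results of these data known. Named were every probe of the 10 genes, the genes of each other list past the threshold for genotype or sex (at most 10 a list, smallest p first), Gcgr, and the 5 genes most like Meg3. Wdr25 was named by its second probe, and Yy1, Wars, Wdr20rt, the single genes left out of marker lists, Dio3 and Dio3os were singled out after their values were seen. Sequences came from RefSeq tables of GRCm38.p6. Alternatives were the scanner's ratio, outlier removal after normexp, median centring, Cy5 alone, the authors' table, other filters, 1 probe per gene, slide as a block, no sex term, a replicate block, and leaving out each liver.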

Additional observations from a re-analysis of the deposited data

Results flagged for a closer look

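4 of 112 groups of 5 livers held a liver far from the rest of its group, and chance gives about 1 in 20 groups. KO 5 was low on the H19 probe A_51_P142196, at -1.60 where the other KO livers were at -1.26 to -1.18. KO 1 was low on the Grb10 probe A_52_P40363, at -1.55 against -1.38 to -1.35. KO 3 was low on the Gnas probe, at -0.0256 against 0.16 to 0.21. KO 4 was low on the 8030488J09Rik probe, at -0.0291 against 0.26 to 0.38.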

How the results depend on the processing

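Meg3 was lower in KO livers under every alternative on both bright probes. Over all 10 livers or with 1 liver left out the difference was -3.22 to -2.24 on A_51_P455997 and -2.96 to -1.68 on A_52_P391505 (leaving out 1 liver gave -2.86 to -2.35 and -2.18 to -1.68), and within slides 1 and 3 it was -2.01 and -3.60 on A_51_P455997 and -1.32 and -2.89 on A_52_P391505. No call reversed. The count of probes passing for KO minus WT was 1505, and 416 with outlier spots removed after normexp, 374 with median centring, 801 without the sex term, and 775 (without WT 3) to 1495 when 1 liver was left out. Of these calls 47.2% were higher in KO, 69.8% with median centring and 58.4% with outliers removed after normexp. For female minus male the count was 2835, and 1002 with outliers removed after normexp (57.0% higher in females, against 44.0%), 1145 with median centring, and 1998 to 3221 when 1 liver was left out. For the interaction it was 7, and 1 with the scanner's ratio, 1 with outliers removed after normexp, 14 with Cy5 alone, and 2 (without WT 4) to 229 (without KO 1) when 1 liver was left out. Median centring also moved the median interaction over all probes to 0.15. The causes were not tested. Of the genes called for KO minus WT, leaving out 1 liver ended the call in 8 of 10 such fits for Gnas and Asb4, 9 for Dync1h1 and Pecam1, 7 for Peg12, 6 for Cd79b, 4 for Wdr25 (KO 1, KO 4, KO 5 or WT 3) and 1 for Igf1 (WT 3), and in 0 for Sgce, Slc22a18, Afp, Igf2bp2, Igfbp4, Lyve1, Klf1, Ass1 and Tat. For female minus male it did so in 9 fits for Acta2, 8 for Ndn and Pdgfra, 7 for Pdgfrb, 6 for Igfbp7, 3 for Gatm (KO 1, KO 5 or WT 4) and 1 for Cdkn1c and Kdr (WT 3).

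The replicate numbers were not taken to pair samples: deviations of same-numbered livers from their group means correlated at 0.52, -0.39, 0.40, 0.48 and 0.22 for numbers 1 to 5, where the pairs of all numbers but 2 share a sex, and at -0.18, 0.25, -0.31, -0.27 and -0.14 after genotype and sex were fitted. With the replicate block 445 probes passed for KO minus WT and 180 for female minus male, and the Meg3 difference on A_51_P455997 was -2.67. The arrays limit statements on Rian, Mirg and the 3 dim Meg3 probes, whose signals were at or near background.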

Other observations

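Alas2, the X-linked gene for the first enzyme of erythroid heme synthesis, was listed among the erythroid markers and showed a large sex difference. Its log2 ratio in females was 3.43, 3.50 and 3.64 in KO and 3.47 and 3.74 in WT livers, and in males 5.53 and 5.65 in KO and 5.89, 5.97 and 5.93 in WT livers. Female minus male was -2.20 (SE 0.08, limma adjusted p = 2.241e-08), and KO minus WT was -0.21 (limma adjusted p = 0.182). Every female was below every male. The 5 females were on 3 slides and the 5 males on 3 slides, with slides 1 and 3 holding both sexes.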
